A study of Mus musculus with 6 samples.

Results

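Penk, Best2, Slc13a4, Crhbp, Necab2, F5, Dio3, Fam107a and Ppp1r1a are 9 genes of a mouse cornea RNA-seq series whose levels moved together over its 6 libraries. They were chosen by the same counts that are described here, because each was higher in the libraries named Cationorm than in those named Control and because they varied together. Each was found by its symbol, once, among the 35673 genes of the deposited count table, and all 9 were among the 18804 genes that passed the filter on low counts. Their differences between the groups are therefore given as a description, with no test. The choice also used their co-variation, so their correlations with each other are a description as well.

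The libraries came from cornea of male C57BL/6J mice aged 6 to 8 weeks, with 3 libraries named Control and 3 named Cationorm. All 6 carry the condition tag CLDE, a contact lens dry eye model. The model combined 0.1% benzalkonium chloride, an eye drop preservative toxic to surface cells, at 5 µL per eye 2 times a day with lens wear for 6 h a day. Treatment then followed for 14 days, at 5 µL per eye 2 times a day, with normal saline, hyaluronic acid or Cationorm, a cationic oil-in-water emulsion eye drop. Every library also carries the treatment tag wild-type and the same batch tag, a single batch. The labels do not settle whether Control stands for an untreated group or for a model group given other drops. They also do not say that the libraries came from separate animals, so p-values measure the spread between these libraries, which may be technical.

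Several of the 9 genes are known from secretory epithelia and from the nervous system. BEST2 is a chloride channel of the non-pigmented ciliary epithelium, the cell layer behind the iris that secretes aqueous humour. PENK is the precursor of the enkephalins, opioid peptides that act on the delta and mu opioid receptors. SLC13A4 is a sodium-coupled sulfate transporter, and CRHBP is a secreted protein that binds corticotropin-releasing hormone and urocortin and limits their action on their receptors. The cornea lies next to the iris and ciliary body at the limbus, so a dissected cornea can carry pieces of these tissues.

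Library totals ran from 32486043 to 39193311 counts. At these totals 3 counts, the floor for low levels, stood for 0.0765 to 0.0923 CPM (counts scaled to a common library size). Over all 18804 genes tested, edgeR's quasi-likelihood test called 0 genes (0%) at an adjusted p under 0.05, with 1641 at an unadjusted p under 0.05. DESeq2 called 51 of 18801 genes (0.271%), and limma-voom called 0. The labelled tissue was present in every library: Krt12, the keratin of the corneal epithelium, was at 8659 CPM ± 268 (SD, n = 3) in Control and 8728 CPM ± 304 (SD, n = 3) in Cationorm.

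Upstream sequences are printed for the 4 genes with the largest differences, so that their promoters can be read side by side. They are the 250 bases before the annotated start in RefSeq on GRCm38.p6, read 5′ to 3′ on the gene's strand. The table held promoters for 6 of the 9 genes, all but Penk, Best2 and Ppp1r1a. The windows are chr1:164151585-164151834 (plus strand) for F5, chr6:35308127-35308376 (minus strand) for Slc13a4, chr12:110278980-110279229 (plus strand) for Dio3 and chr13:95444832-95445081 (minus strand) for Crhbp. Capitals mark matches to TATAAA or CCAAT on either strand.
F5: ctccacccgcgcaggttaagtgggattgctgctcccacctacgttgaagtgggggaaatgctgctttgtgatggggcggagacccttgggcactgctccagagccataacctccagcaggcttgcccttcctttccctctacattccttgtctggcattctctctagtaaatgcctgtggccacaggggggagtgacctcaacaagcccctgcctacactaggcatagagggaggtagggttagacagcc
Slc13a4: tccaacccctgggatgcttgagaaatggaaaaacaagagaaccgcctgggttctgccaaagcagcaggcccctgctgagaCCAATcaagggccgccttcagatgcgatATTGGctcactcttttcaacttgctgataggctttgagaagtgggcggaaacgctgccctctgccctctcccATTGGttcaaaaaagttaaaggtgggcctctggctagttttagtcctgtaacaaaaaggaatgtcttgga
Dio3: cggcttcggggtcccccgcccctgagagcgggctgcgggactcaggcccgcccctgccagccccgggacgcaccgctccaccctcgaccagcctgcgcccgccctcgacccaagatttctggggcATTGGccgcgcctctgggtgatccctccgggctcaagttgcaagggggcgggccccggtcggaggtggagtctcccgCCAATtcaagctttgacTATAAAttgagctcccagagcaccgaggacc
Crhbp: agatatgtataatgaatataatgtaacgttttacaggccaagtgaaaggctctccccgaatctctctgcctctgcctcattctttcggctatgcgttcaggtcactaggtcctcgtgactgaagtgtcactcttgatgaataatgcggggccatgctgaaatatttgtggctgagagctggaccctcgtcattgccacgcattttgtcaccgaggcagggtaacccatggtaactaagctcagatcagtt

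Both sequence motifs are general promoter elements, and the 4 windows differed in them. The Slc13a4 window held CCAAT or its reverse complement at 3 places, starting 170, 142 and 70 bases before the start. The Dio3 window held TATAAA from 31 to 26 bases before the start and CCAAT at 2 places, starting 125 and 48 bases before it. The F5 and Crhbp windows held neither. Of 32851 promoters of the same length, 12.4% held TATAAA and 33.8% held CCAAT on either strand. On both strands, the 8 promoters of the 6 genes were also searched for 4 further motifs: TGACGTCA (a cAMP response element), TGANTCA (an AP-1 site), TCATGTG (an MITF M-box) and TAATCC (an OTX site). Necab2 held TGAGTCA, starting 169 bases before the start, and the 4 motifs had no other match in these windows. Those 4 motifs were in 1.55%, 6.75%, 3.25% and 6.25% of all promoters. The GC content was 57.2% for F5, 50.4% for Slc13a4, 69.6% for Dio3 and 47.2% for Crhbp, against a median of 52.4% over all promoters, so the 4 windows did not share a base composition.

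All levels below are CPM normalised by TMM (a trimmed mean scaling between libraries), listed for Control 1, 2 and 3 and then for Cationorm 1, 2 and 3. In all 9 genes the lowest Cationorm library lay above the highest Control library. That was so for 1642 of the 18804 genes tested (8.73%), and the reverse for 1146 (6.09%). The 9 genes were picked for this direction, so nothing is read from their count. Fold changes are edgeR estimates on the log2 scale, each with its standard error (SE).

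Among the secreted proteins and hormone precursors, Penk was the most abundant by CPM. Penk stood at 41.8, 44.8 and 52.5 CPM in Control and at 110.9, 113.9 and 72.8 CPM in Cationorm. Cationorm 1 and 2 were close to each other and well above Cationorm 3, which was still 1.39 times the highest Control library. The mean went from 46.4 ± 5.47 to 99.2 ± 22.9 CPM (SD, n = 3 each), a log2 fold change of 1.10 ± 0.18 (SE).

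Crhbp stood at 5.20, 5.16 and 10.9 CPM in Control and at 22.3, 23.8 and 14.7 CPM in Cationorm. Control 3 stood apart above the other Control libraries, and Cationorm 3 was the closest to it, at 1.34 times its level. The log2 fold change was 1.51 ± 0.34 (SE). F5, coagulation factor V, is the cofactor of factor Xa in making thrombin and is secreted into plasma. F5 stood at 2.60, 3.17 and 6.18 CPM in Control and at 14.3, 15.2 and 8.96 CPM in Cationorm. It had the largest difference of the 9 genes, with a log2 fold change of 1.69 ± 0.36 (SE), and the same libraries, Control 3 and Cationorm 3, lay closest together. In the RefSeq models on GRCm38, F5 is the only one of the 9 genes that overlaps other annotated genes, Gm16548 and Gm51287. Whether the deposited counts share reads there was not tested.

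Of the membrane transport proteins, Slc13a4 stood at 4.63, 4.64 and 6.89 CPM in Control and at 20.2, 19.1 and 10.98 CPM in Cationorm. Its mean went from 5.39 ± 1.30 to 16.7 ± 5.01 CPM (SD, n = 3 each), a log2 fold change of 1.63 ± 0.27 (SE). Best2 stood at 4.15, 5.71 and 7.06 CPM in Control and at 15.6, 18.6 and 11.7 CPM in Cationorm, a log2 fold change of 1.44 ± 0.24 (SE). In both transport genes the lowest Cationorm library was again Cationorm 3, at 1.59 times the highest Control library for Slc13a4 and 1.66 times for Best2.

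Dio3 encodes the deiodinase that inactivates thyroid hormone, and it was the least abundant of the 9 by CPM. It had 39, 45 and 52 raw counts in Control and 150, 139 and 108 in Cationorm, or 0.976, 1.30 and 1.48 CPM against 4.76, 3.69 and 2.87 CPM. It had the widest gap between the groups, with the lowest Cationorm library at 1.94 times the highest Control library, and a log2 fold change of 1.59 ± 0.27 (SE). Dio3os, which is transcribed antisense to Dio3, stood at 1.95, 2.71 and 3.93 CPM in Control and at 8.00, 7.35 and 4.18 CPM in Cationorm. The RefSeq models of Dio3 and Dio3os on GRCm38.p6 do not overlap. The annotation and strand setting behind the counts are not stated, so it was not tested whether the deposited counts share reads.

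The other 3 genes encode intracellular proteins. Necab2 encodes a calcium-binding protein of neurons and stood at 8.48, 8.34 and 11.5 CPM in Control and at 23.2, 22.3 and 15.6 CPM in Cationorm (log2 fold change 1.11 ± 0.20, SE). Fam107a, a glucocorticoid-responsive gene whose protein binds actin, stood at 11.3, 12.98 and 14.8 CPM in Control and at 26.1, 24.3 and 19.5 CPM in Cationorm (log2 fold change 0.84 ± 0.15, SE). Ppp1r1a, whose protein inhibits protein phosphatase 1 once it is phosphorylated, stood at 8.18, 9.55 and 9.65 CPM in Control and at 15.3, 16.0 and 13.4 CPM in Cationorm (log2 fold change 0.71 ± 0.13, SE). Ppp1r1a had the smallest fold change, and Fam107a the narrowest gap, with its lowest Cationorm library at 1.32 times its highest Control library.

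**Figure D1:**
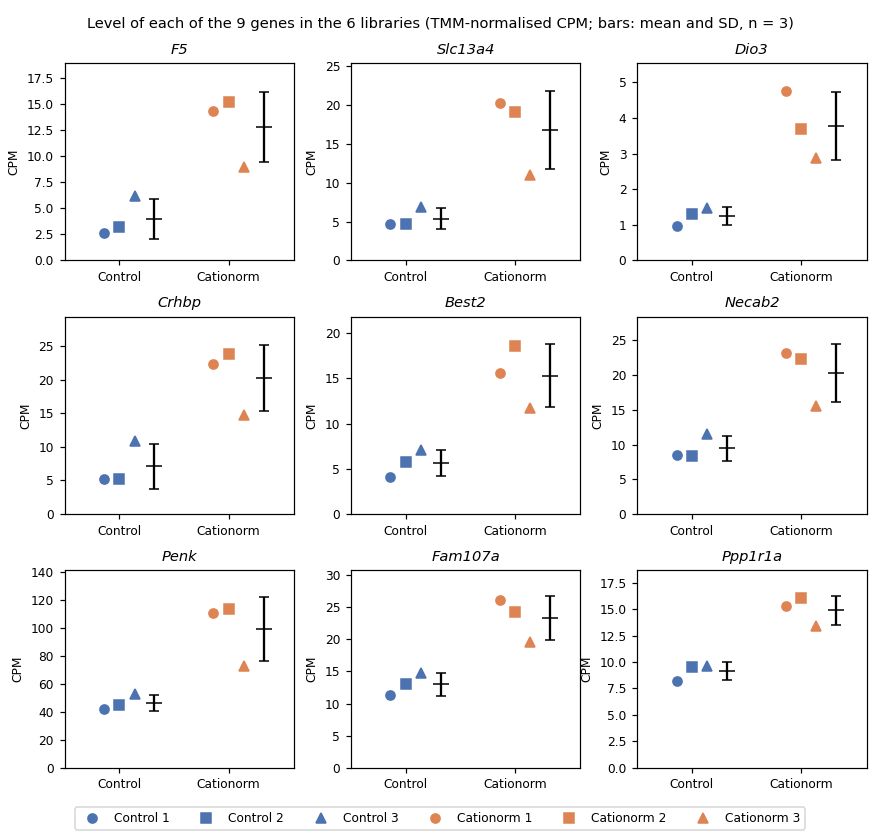
Level of each gene in TMM-normalised CPM (y axis, from 0) in the 3 Control and 3 Cationorm libraries (points; the marker shape gives the library number), with the mean and SD of each group as black bars. In all 9 panels the triangles, Control 3 and Cationorm 3, lie closest to the other group.

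The spread within each group had the same pattern in all 9 genes. Control 3 was the highest Control library in 9 of 9, as in 35.9% of all genes tested, and Cationorm 3 was the lowest Cationorm library in 9 of 9, as in 40.8%. Both held at once for 18.0% of all genes tested, and for 36.0% of the 1642 genes whose Cationorm libraries all lay above Control. After each group's mean was removed from log2(CPM + 0.1), the 36 pairs among the 9 genes had Pearson r from 0.693 to 0.995, with a median of 0.862. Of these pairs, 30 had r over 0.8. Each r is over 6 libraries with 4 free values, the same libraries enter every pair, and 1 pair of libraries, Control 3 and Cationorm 3, can set it.

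Marker lists of tissues that adjoin the cornea varied over the same libraries. The ciliary epithelium list had 14 genes, all tested, of which edgeR called 0 higher and 0 lower. Of these, 12 had a fold change above 0, as had 51.2% of all genes tested. The median log2 fold change of the list was 0.64, against 0.005 over all genes. The summed level of the list was 636, 597 and 657 CPM in Control and 864, 770 and 700 CPM in Cationorm. The pigment cell list had a summed level of 580, 500 and 1211 CPM in Control and 1691, 1376 and 1360 CPM in Cationorm, with 12 of 12 genes above 0 and a median of 0.92. The list for smooth muscle of iris and ciliary body had 166, 132 and 280 CPM in Control and 379, 398 and 315 CPM in Cationorm, with 11 of 12 above 0 and a median of 0.78. Neither of these lists had a gene called by edgeR, and no marker of the 3 lists was at 0 in all libraries. In such bulk samples fewer cells of a type and less RNA per cell cannot be told apart, and the part of these tissues in the levels of the 9 genes was not tested.

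The most abundant markers did not all behave alike. Aqp1, a water channel, and Otx1, a transcription factor, led the ciliary list, with log2 fold changes of 0.08 ± 0.10 and 0.16 ± 0.06 (SE). Mfrp, a frizzled-related membrane protein of ciliary and retinal pigment epithelium, stood at 19.5, 16.2 and 50.9 CPM in Control and at 66.3, 56.6 and 59.9 CPM in Cationorm. Dct, an enzyme of melanin synthesis, stood at 226, 210 and 490 CPM in Control and at 687, 587 and 556 CPM in Cationorm. Myh11, the smooth muscle myosin heavy chain, stood at 21.6, 14.9 and 45.3 CPM in Control and at 97.6, 66.0 and 56.9 CPM in Cationorm. In Mfrp, Dct and Myh11, Control 3 was again the highest Control library, and the groups did not overlap. Myh11 had the largest fold change of its list. The groups overlapped in Tyrp1 of the pigment cell list and in Des of the smooth muscle list. Des stood at 32.8, 7.67 and 55.8 CPM in Control and at 12.0, 89.8 and 38.5 CPM in Cationorm. Cationorm lay above Control without overlap in 8 of 14 ciliary, 8 of 12 pigment cell and 6 of 12 smooth muscle markers. The same held for 4 of 6 Schwann cell and 2 of 6 trabecular meshwork markers, and for 0 or 1 in each other tissue list. The share over all genes tested was 8.73%.

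Other eye tissues also differed between the libraries. All 11 photoreceptor markers had a fold change below 0, none called by edgeR. Their mean log2(CPM + 0.1), set against the mean of the Control libraries, was 0.24, 0.10 and -0.34 in Control and -1.42, -1.67 and -0.05 in Cationorm. Cationorm 3 thus lay within the Control range for these retinal genes, while Cationorm 1 and 2 lay below it. A fold change above 0 in every tested marker was not limited to pigment cells. It held for lens (10 of 10, median log2 fold change 1.15), skeletal muscle (12 of 12, 0.42), retinal pigment epithelium (7 of 7, 0.52), blood vessel endothelium (7 of 7, 0.42) and Schwann cells (6 of 6, 0.45), with 0 genes called by edgeR in each. The summed lens level was 74.3, 2919 and 2463 CPM in Control and 1599, 3503 and 5793 CPM in Cationorm. The summed skeletal muscle level was 883, 168 and 1576 CPM in Control and 130, 2696 and 1118 CPM in Cationorm. Both varied far more within groups than the 9 genes did, and with group means removed their median r with the 9 genes was 0.217 and 0.022. The corneal epithelium list differed little, with 5 of 9 genes above 0 and a median log2 fold change of 0.01.

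**Figure D2:**
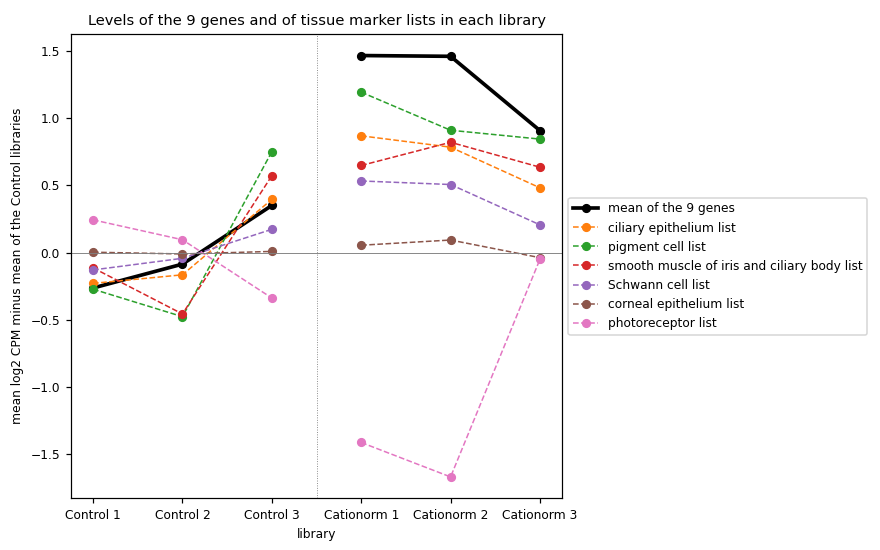
Mean log2(CPM + 0.1) of the 9 genes and of 6 tissue marker lists in each library, minus the mean of the 3 Control libraries (y axis, log2 units; lines only join the points of a list). The 9 genes lie at -0.26, -0.09 and 0.35 in Control and at 1.47, 1.46 and 0.91 in Cationorm, and the photoreceptor list runs the other way.

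On this log2 scale the lowest Cationorm library lay above the highest Control library by 0.56 for the mean of the 9 genes. The same gap was 0.09 for the ciliary epithelium list, 0.09 for the pigment cell list, 0.06 for the smooth muscle list and 0.03 for the Schwann cell list. The 9 genes were chosen for being higher in Cationorm and the lists were not, so nothing is read from the wider gap.

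With group means removed, the 9 genes had their highest median r with the Schwann cell list (6 markers of the glia that wrap nerves). The ciliary epithelium list followed. This order did not hold in every setting. Without Cationorm 3 the ciliary list came first (0.951 against 0.947), and by Spearman's rho both lists were at 0.886. The Schwann cell list led by more without Control 1 (0.942 against 0.858) and with lists as summed CPM (0.882 against 0.722). The median r over the 9 genes was 0.951 for the Schwann cell list (0.860 to 0.980) and 0.894 for the ciliary epithelium list (0.702 to 0.982). It was 0.844 for the trabecular meshwork list, which came above the ciliary list without Cationorm 1 (0.909 against 0.890) or without Cationorm 2 (0.909 against 0.892). It was 0.651 for the pigment cell list, 0.522 for the smooth muscle list and 0.671 for the corneal epithelium list, which fell to 0.240 without Cationorm 3. The smooth muscle value was 0.04 without Control 3 and 0.81 without Cationorm 3. The photoreceptor list had a median r of -0.839. Within the ciliary list, Crhbp and F5 had the highest values, 0.982 and 0.980, and Ppp1r1a the lowest, 0.702. These values describe 6 libraries that all lists share, with 4 free values, and lists of several tissues move together in them.

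**Figure D3:**
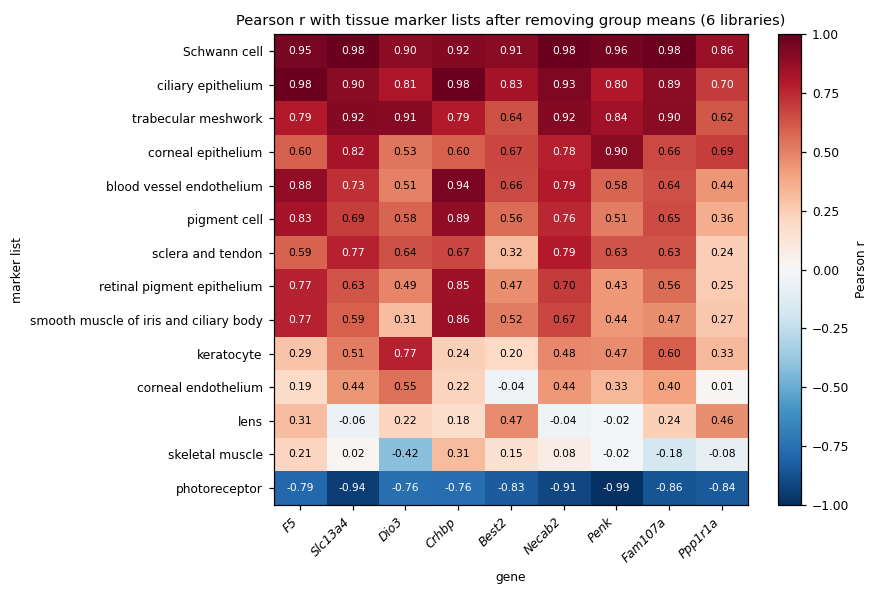
Pearson r over 6 libraries between each of the 9 genes (columns) and the mean log2 level of each tissue marker list (the y axis), after the mean of each group was removed; red is positive, blue negative. The Schwann cell and ciliary epithelium lists have values of 0.70 or more for all 9 genes, and the photoreceptor list is -0.756 or lower for all 9.

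Single ciliary markers ranged widely in how they followed the mean profile of the 9 genes. The value of r was 0.981 for Zic2, 0.960 for Optc, 0.960 for Wfdc1 and 0.956 for Col9a2, but 0.119 for Otx1, 0.040 for Aqp1 and -0.834 for Cdh2. In the Schwann cell list it ran from 0.215 for Egr2, at 10 to 26 counts per library, to 0.977 for Pmp22. Optc encodes opticin, which the ciliary epithelium secretes into the vitreous, and Zic1 and Zic2 are transcription factors of the ciliary margin. These 3 genes were singled out after their values were seen. Optc stood at 9.23, 11.3 and 24.4 CPM in Control and at 48.0, 45.1 and 25.9 CPM in Cationorm. Zic2 stood at 2.08, 2.34 and 4.39 CPM in Control and at 8.95, 10.2 and 4.57 CPM in Cationorm. In both markers Control 3 and Cationorm 3 were almost equal, which was not so for the 9 genes.

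The ratio of each gene to Optc within a library describes how far the pair moved in step. The genes were chosen for being higher in Cationorm, and Optc was singled out after its values were seen. A ratio that spans less than the gene itself follows in part from these choices, so nothing is read from it. The ratio of Crhbp to Optc was 0.564, 0.458 and 0.449 in Control and 0.465, 0.527 and 0.569 in Cationorm. It spanned 1.27-fold over the 6 libraries, while Crhbp itself spanned 4.60-fold, and the groups overlapped. For F5 the ratio was 0.282, 0.281 and 0.254 in Control and 0.297, 0.337 and 0.347 in Cationorm. It spanned 1.37-fold against 5.85-fold for F5, but its groups did not overlap. For Best2 the ratio spanned 1.75-fold against 4.49-fold, and for Slc13a4 1.77-fold against 4.35-fold. Other markers gave wider spans for Crhbp than Optc did. The ratio of Crhbp spanned 1.49-fold to Zic1, 1.45-fold to Zic2, 1.58-fold to Myh11 and 1.81-fold to Dct. Its groups did not overlap in the ratio to Dct.

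Penk, Necab2, Fam107a and Ppp1r1a kept less closely to Optc. The ratio of Penk to Optc was 4.53, 3.97 and 2.15 in Control and 2.31, 2.52 and 2.82 in Cationorm, a 2.10-fold span against 2.72-fold for Penk. The ratio of Ppp1r1a to Optc spanned 2.78-fold, more than the 1.96-fold of Ppp1r1a itself. The ratio of Necab2 to Optc spanned 1.94-fold against 2.78-fold for Necab2. In Control 1 and 2 the ratios of Penk, Necab2, Fam107a and Ppp1r1a to Optc were above those of the other 4 libraries.

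**Figure D4:**
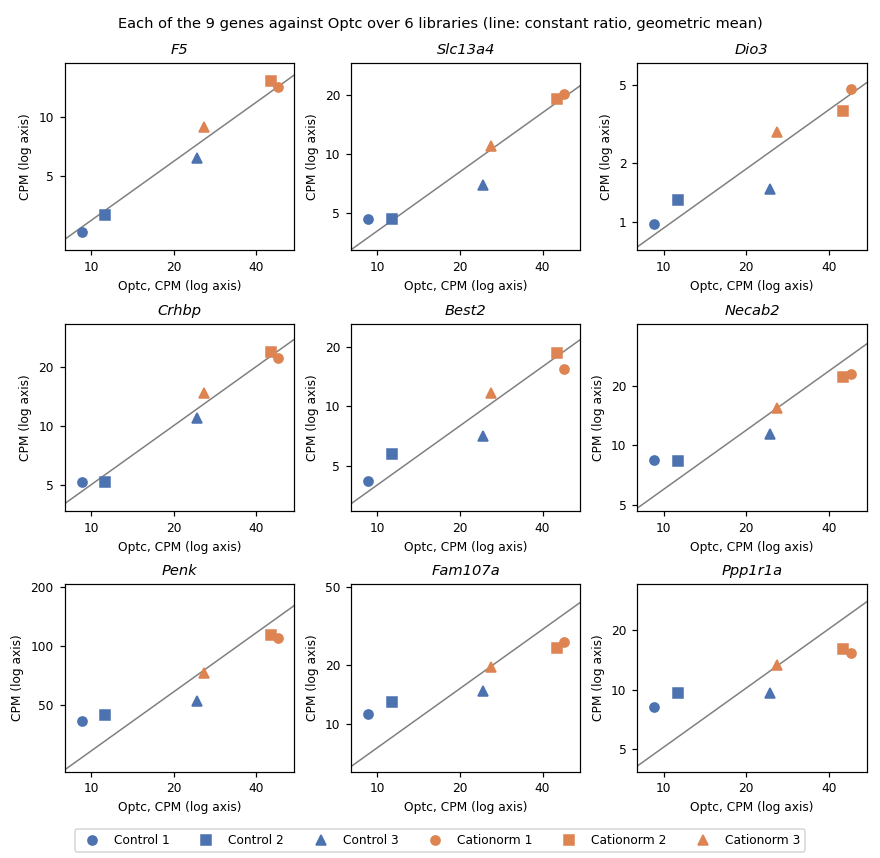
Level of each of the 9 genes (y axis, CPM, log scale) against Optc (x axis, CPM, log scale) in the 6 libraries, with a line of constant ratio at the geometric mean. Crhbp and F5 lie along the line, while Penk, Necab2, Fam107a and Ppp1r1a are among those that lie above it in Control 1 and Control 2.

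Many other genes shared the profile. Of 14088 genes with a mean of at least 1 CPM, 510 (3.62%) had r over 0.9 with the mean profile of the 9 genes after group means were removed. The 10 with the highest r were Fam177a2, Bckdhb, Rabl6, Dio3os, E2f7, Igfbp7, Icam2, Nectin3, Elf4 and Epn2, from 0.998 to 0.990. In 4 of these, Dio3os, Igfbp7, Nectin3 and Elf4, every Cationorm library lay above every Control library, as in 8.73% of all genes tested. The 10 were picked by their likeness to the 9 genes, so nothing is read from this count. Igfbp7, a secreted protein that binds insulin-like growth factors, stood at 41.8, 45.8 and 53.9 CPM in Control and at 72.5, 75.1 and 55.6 CPM in Cationorm. Nectin3, a cell adhesion protein that joins the pigmented and non-pigmented layers of the ciliary epithelium, stood at 9.71, 11.9 and 16.5 CPM in Control and at 28.7, 26.8 and 18.3 CPM in Cationorm. In the other 6 the groups overlapped, as in Bckdhb, an enzyme subunit of branched-chain amino acid breakdown, at 12.4, 13.5 and 15.0 CPM in Control and 15.0, 14.9 and 12.6 CPM in Cationorm.

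The partners of the 9 genes in their pathways were taken from 10 lists with 97 other genes, of which 80 were tested. None of the 80 passed edgeR's test, with a smallest adjusted p of 0.550 and 11 at an unadjusted p under 0.05, of which 7 were higher and 4 lower. Of the 80, 40 had a fold change above 0, and their median log2 fold change was 0.003. DESeq2 called 1, Rian, lower in Cationorm, and limma-voom called 0. Without Cationorm 3, edgeR called 3, Meg3, Rian and Ttyh1, all lower in Cationorm.

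The receptors for enkephalin were hardly detected. Oprm1 had 2 counts in Cationorm 1 and Oprd1 2 counts in Cationorm 3, with none in the other 5 libraries each, below the floor of 3 counts. Oprl1, the nociceptin receptor, stood at 1.03, 1.01 and 1.05 CPM in Control and at 0.444, 0.531 and 0.957 CPM in Cationorm (log2 fold change -0.67 ± 0.34, SE). Pdyn, the precursor of the dynorphins, had a log2 fold change of 0.01 ± 0.18 (SE). Cpe and Pcsk2, enzymes that cut and trim such precursors, had -0.15 ± 0.08 and -0.54 ± 0.29 (SE). Of the 10 tested opioid genes besides Penk, 5 were above 0 and 5 below, and 0 passed.

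Crh and Ucn, the genes of the hormone and the urocortin that CRHBP binds, were also near the floor. Crh had 4, 4 and 2 counts in Control and 0, 0 and 2 in Cationorm, Ucn had 2 counts in 1 library and Ucn3 had 1 count in 1 library. Ucn2, a urocortin that acts on the second receptor, was at 2.28, 1.56 and 2.56 CPM in Control and 2.29, 2.31 and 2.15 CPM in Cationorm. The receptors Crhr1 and Crhr2 had log2 fold changes of -0.70 ± 0.46 and 0.21 ± 0.68 (SE), neither passing the test.

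Among the chloride channels, Best1, the bestrophin of the retinal pigment epithelium, stood at 2.15, 1.76 and 1.77 CPM in Control and at 2.67, 2.79 and 2.90 CPM in Cationorm. Its groups did not overlap, but its log2 fold change of 0.56 ± 0.19 (SE) did not pass the test. Ano2, a calcium-activated chloride channel of photoreceptors and olfactory neurons, had a log2 fold change of -0.77 ± 0.34 (SE). Among the carriers of sulfate and dicarboxylates, Slc13a3 stood at 3.20, 2.60 and 4.67 CPM in Control and at 7.20, 7.48 and 6.17 CPM in Cationorm. It had the largest fold change of the list after Slc13a4 and Slc26a1, 0.99 ± 0.24 (SE), with groups that did not overlap and an adjusted p that missed the threshold. Papss2, which makes the activated form of sulfate, had 0.28 ± 0.14 (SE).

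For coagulation, 9 of the 11 tested genes besides F5 were above 0 and 0 passed. Thbd, thrombomodulin, stood at 22.6, 20.3 and 23.2 CPM in Control and at 34.2, 27.8 and 26.1 CPM in Cationorm, without overlap (log2 fold change 0.41 ± 0.12, SE). Serpind1, heparin cofactor II, an inhibitor of thrombin, had 2, 11 and 11 counts in Control and 12, 40 and 52 counts in Cationorm. Its groups did not overlap in CPM. Its log2 fold change of 2.07 ± 0.69 (SE) was larger than that of any of the 9 genes and did not pass the test, and Control 1 was below the floor of 3 counts. F3, tissue factor, had a log2 fold change of 0.02 ± 0.16 (SE). F2, prothrombin, had 1 to 4 counts per library, F9 had 0 in all 6, and F10, whose activated form works with factor V, had 4 counts in Control 1, 2 in Cationorm 3 and 0 elsewhere.

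Genes around Dio3 went in different directions. Dio3 lies at one end of the imprinted Dlk1-Dio3 cluster, where Dlk1 and Dio3 are expressed from the paternal and Meg3 and Rian from the maternal allele. Meg3, a long noncoding RNA, stood at 128.9, 97.2 and 89.6 CPM in Control and at 46.6, 41.9 and 93.4 CPM in Cationorm. Rian, the noncoding RNA next to it, stood at 32.4, 27.6 and 22.5 CPM in Control and at 11.4, 10.99 and 20.2 CPM in Cationorm, with groups that did not overlap and a log2 fold change of -0.95 ± 0.26 (SE). Cationorm 3 was the highest Cationorm library for both, as it was for the photoreceptor markers. Rtl1, in the same cluster, had 20, 14 and 14 counts in Control and 9, 10 and 7 in Cationorm. Its groups did not overlap in CPM, and its log2 fold change was -0.82 ± 0.35 (SE). Dlk1, whose groups overlapped, had a log2 fold change of 0.62 ± 0.32 (SE). Of the 5 tested genes of the cluster besides Dio3, 1 was above 0 and 4 were below. Whether direction went with the parental allele was not tested. Among the thyroid hormone genes, Dio2, which makes the active hormone, had -0.60 ± 0.54, and Klf9, a target of thyroid hormone and glucocorticoid, had -0.37 ± 0.16 (SE). The receptors Thra and Thrb had values within 1 SE of 0.

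The relatives of the intracellular genes varied in size and direction. Necab1 and Necab3 had log2 fold changes of 0.03 ± 0.15 and -0.54 ± 0.32 (SE). Fam107b stood at 137.8, 135.9 and 140.0 CPM in Control and at 154.4, 157.6 and 152.0 CPM in Cationorm, without overlap but with a log2 fold change of only 0.17 ± 0.05 (SE). Fkbp5, a glucocorticoid target, stood at 114, 139 and 39.9 CPM in Control and at 56.1, 46.3 and 44.0 CPM in Cationorm, so that Control 3 lay below every Cationorm library. Ppp1r1b, the relative of Ppp1r1a known as DARPP-32, stood at 1.85, 3.29 and 3.50 CPM in Control and at 6.12, 5.41 and 3.27 CPM in Cationorm. Its groups overlapped, but its log2 fold change of 0.78 ± 0.33 (SE) was about as large as that of Ppp1r1a. None of these relatives passed edgeR's test.

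**Figure D5:**
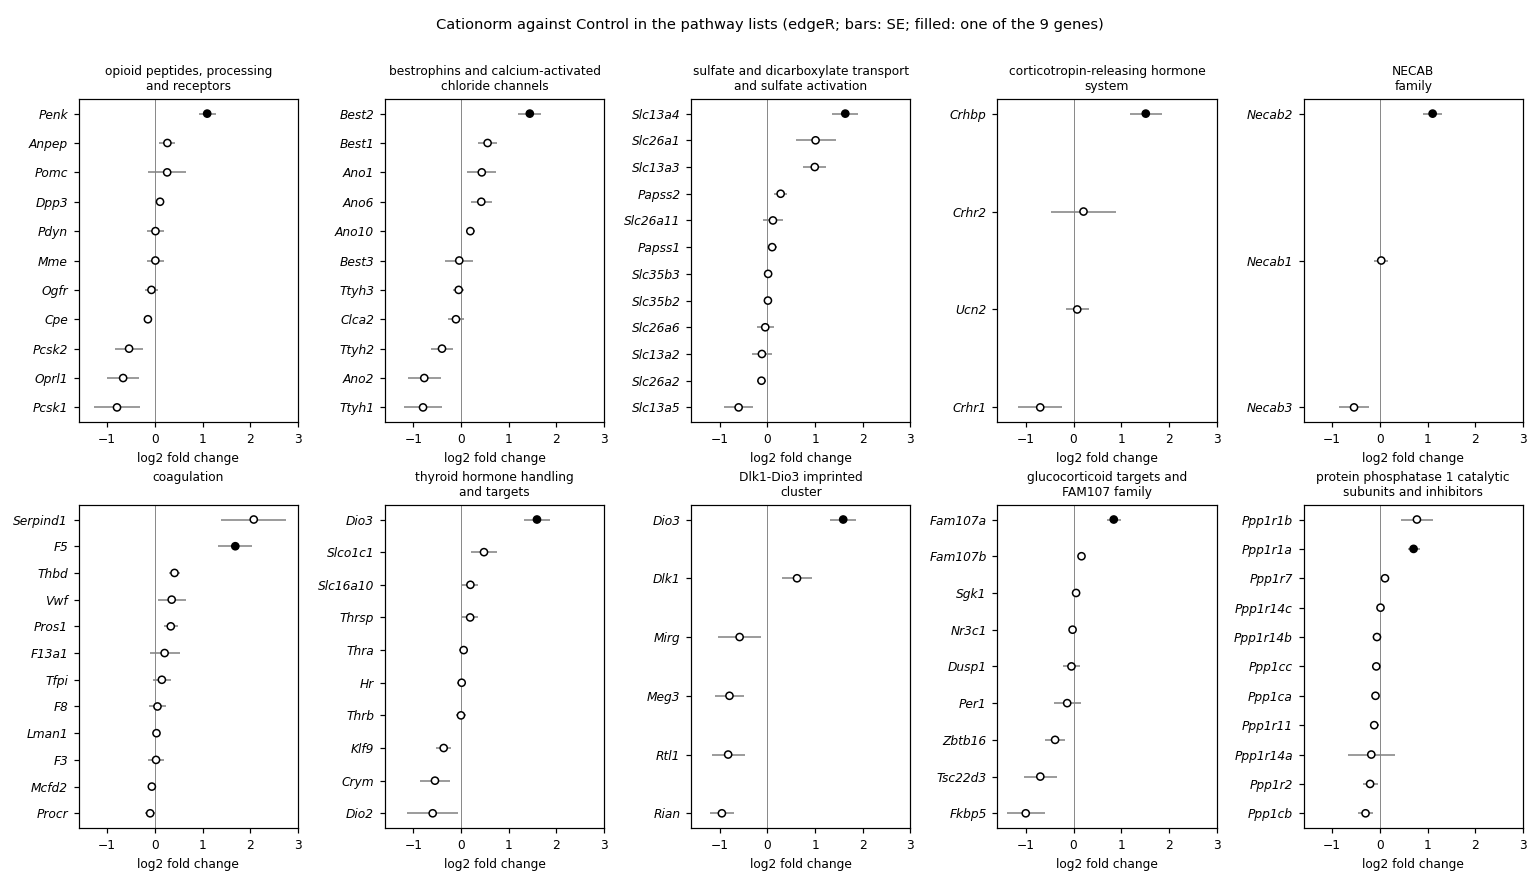
Log2 fold change of Cationorm against Control by edgeR (x axis; bars are the SE) for all but 1 of the tested genes of the 10 pathway lists (names on the y axis); filled points are the 9 genes, open points their partners. The partners lie on both sides of 0, and Slc13a3, Slc26a1 and Serpind1 are those nearest to, or beyond, a value of 1.

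The deposited annotation places 6 of the 9 gene products at the plasma membrane, a term held by 19.0% of the genes tested, and 3 in the extracellular region, a term held by 5.95%. The genes otherwise belong to separate gene families.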

How the data were processed

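RNA from mouse cornea was sequenced as mRNA-enriched libraries, 3 named Control and 3 named Cationorm. The authors deposited a table of whole-number counts per gene, with 1 column per library, per the file headers. GRCm39, mm39 and DESeq2 are named, with no role, in the submitters' processing notes; which aligner, counter, annotation and strand option were used is not stated in those sources. The counts were filtered with filterByExpr (18804 of 35673 genes kept; 3247 had no count), scaled by TMM and tested across all genes with edgeR 4.0.16 in R 4.3.3 (quasi-likelihood test, Benjamini-Hochberg adjusted p under 0.05, no covariate). DESeq2 1.42.0 and limma 3.58.1 (voom) were alternatives, beside other scalings, no filter, a replicate block and each library left out. Correlations used log2(CPM + 0.1) with group means removed, and list levels are means of these values. The fits were tested on simulated data. Promoters and overlaps come from RefSeq tables, matched by symbol.

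The 9 genes and all lists were chosen with earlier results of these data known. All 9 are described. From each pathway list, up to 3 genes with the smallest p are named, with receptors, ligands and antisense partners. From the ciliary, pigment cell and smooth muscle lists, some of the 4 most abundant markers are named, and few from the other tissue lists. The 10 genes most like the mean profile are named, without predicted gene models. Other named genes were chosen after their values were seen. Values of some genes in the lists are not reported here.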

Additional observations from a re-analysis of the deposited data

How the results depend on the processing

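The 9 genes' log2 fold changes kept their direction in 117 values over 13 settings, from 0.63 to 2.35, and 112 moved by less than the replicate spread. The other 5 came from leaving out Control 3 and Cationorm 3 together: 2.08 for Slc13a4, 2.15 for Crhbp, 1.43 for Necab2, 2.35 for F5 and 1.06 for Fam107a. That setting was chosen after seeing the data. It removes the libraries nearest to the other group, so it widens the difference by construction. With it, edgeR called 983 genes (331 higher), 11 of them in the pathway lists. Leaving out 1 library at a time, edgeR called 0 to 350 genes (350 without Cationorm 3, of which 15 higher; 8 without Control 3; 1 without Control 2) and 0 to 3 pathway genes. DESeq2 called 51 genes and 1 pathway gene. With the replicate block 0 genes were called, with 879 at an unadjusted p under 0.05. The numbers share only a name: deviations of same-numbered libraries correlated at -0.171, -0.299 and -0.152. The median r of the 9 genes with the ciliary list was 0.858 to 0.951 with 1 library left out, 0.880 with library totals, 0.886 by Spearman's rho and 0.722 with the list's summed CPM; the cause was not tested. Leaving out Control 3 and Cationorm 3 together gave no r, since too few values remain. For the Schwann cell list the median r was 0.942 to 0.965 with 1 library left out. With the list's summed CPM, the median r was 0.882 for Schwann cells, 0.472 for trabecular meshwork and 0.095 for corneal epithelium. Low counts limit the receptors and ligands named above.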
